A study of Mus musculus with 74 samples.

Results

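The 9 genes described here, all of the chemokine system of T cells, were followed across a mouse series of 2-colour arrays. They were chosen by gene symbol and are 5 chemokine ligands (Ccl1, Ccl22, Ccl3, Ccl4 and Xcl1) and 4 chemokine receptors (Cxcr3, Cxcr4, Ccr7 and Ccr9). All 9 were found, with 1 probe each, among the 13409 gene symbols on the array. The 74 arrays fall into 11 groups, and each array set 2 RNAs against each other.

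The first 7 groups came from the DO11.10 T cell hybridoma, a line made by fusing a T cell with a lymphoma, and untreated cells of the line gave the second RNA. They were cells with the construct called HDAC7 DP and treated with PMA and ionomycin for 2.5 h (8 arrays), cells with HDAC7-VP16 (10), cells with the empty virus MSCV and the same stimulus (8), cells with the empty virus alone (MSCV_A, 12), cells with MEF2D-VP16 (4), cells with MSCV Nur77 (4) and a further set with the empty virus alone (MSCV_B, 4). PMA and ionomycin stand in for T cell receptor signalling by opening the protein kinase C and calcium routes. HDAC7 is a histone deacetylase that represses genes bound by MEF2 factors, VP16 is a viral activation domain, and Nur77 is the orphan nuclear receptor encoded by Nr4a1. The meaning of DP is not given in the sources used here. The other 4 groups hold 6 arrays each of total thymocytes. One compared the thymus of mhc -/- mice with that of mice carrying the DO11.10 T cell receptor transgene. In the other 3, mice with this transgene had received antigenic peptide 3 h, 6 h or 12 h earlier, and the partner RNA came from such mice without an injection. The sources used here give neither which MHC genes were deleted nor the animals' age, strain or sex, the peptide's dose, nor whether animals were pooled.

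Chemokines are small secreted proteins that bind receptors coupled to Gi proteins and steer cells along their gradients. In the thymus Cxcr4, the receptor of Cxcl12, holds immature thymocytes in the cortex, Ccr9, the receptor of Ccl25, is carried by thymocytes of the cortex, and Ccr7, the receptor of Ccl19 and Ccl21, draws selected thymocytes into the medulla. Activated T cells secrete Ccl1, Ccl3, Ccl4 and Xcl1, dendritic cells are a main source of Ccl22, and Cxcr3, the receptor of Cxcl9, Cxcl10 and Cxcl11, marks effector T cells.

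Values are log2 ratios of the RNA of a group over its partner RNA, with each array centred on its median. The sources used here give neither the log base, taken as 2, nor the direction of the ratios, which was taken as likely from Nr4a1 on Nur77 arrays and from MHC genes on mhc -/- arrays. A ratio carries no level, so the genes are not ranked by abundance, and spot brightness against background was not used here. A gene is said to have risen or fallen only where limma gave a Benjamini-Hochberg adjusted p under 0.05 over all 16463 probes. The labels do not say that arrays of a group came from separate cultures or animals, so each p-value rests on how arrays of a group scatter, and that scatter may be technical. Total thymocytes are a mixture, and fewer cells of a type and less RNA per cell cannot be told apart. Since only ratios are at hand, whether T cell markers were present at all could not be checked in either cell source.

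Several arrays do not sit well with their labels. MSCV_A replicates 3 and 9 ran against the other arrays of their dye orientation (median correlation over probes -0.51 and -0.39) and with those of the opposite one (0.50 and 0.55). Their Nr4a1 ratios, -0.37 and -1.01, lay within the range of the other 10 arrays (-1.44 to -0.11). The direction of both arrays is not settled. Between opposite dye orientations the median correlation was also below 0 in MSCV_A (-0.40), HDAC7_VP16 (-0.48) and MSCV_B (-0.24), and above 0 in the other 8 groups. Each comparison that uses MSCV_A was run with the sign of replicates 3 and 9 turned, with their dye exchanged and without both, and over these 3 settings 0 member calls changed. For HDAC7_VP16 replicate 1 the labels disagree: the title says HDAC7-VP16, which was followed here, and the source name says empty virus. Of the peptide slides numbered 13-, 4 slide numbers (5 to 8) were given to arrays of more than 1 time. The 12 h arrays on slides 13-7 and 13-8, numbers that 3 h arrays carry too, stood apart from the other 4 of their time: Nr4a1 was 2.28 and 3.25, against 0.93 to 1.59, H2-Aa -0.28 and -0.30, against -1.99 to -1.40, and H2-Ab1 -0.40 and -0.07, against -1.97 to -1.41. Over the 12 arrays at 3 h and 6 h, Nr4a1 ran from 2.81 to 3.52, H2-Aa from -0.21 to 0.21 and H2-Ab1 from -0.86 to 0.23. The MHC gene B2m did not set slides 13-7 and 13-8 apart at 12 h. It was 1.35 and 1.43 on them, against 0.73 to 1.59 on the other 4. Both values lay above every array at 3 h (0.08 to 0.68) and 6 h (0.36 to 1.02). Of the genes called at 12 h, Ccl22 (3.01, limma adjusted p = 1.16e-05), Xcl1 (1.04, adjusted p = 8.12e-05) and Cxcr4 (-2.70, adjusted p = 1.59e-05) were called without both arrays too, while the counts of other genes at 12 h rest on all 6. As a check of the labels, Nr4a1 stood at 4.50 on the Nur77 arrays, while Mef2d stood at -0.01 on the arrays labelled MEF2D-VP16. The direction of the ratios had been taken from Nr4a1 on the Nur77 arrays, so only the size of that value bears on the labels. Hdac7 split the arrays labelled HDAC7 DP by slide series, between 3.41 and 4.81 on the 4 of series 15 and between -0.02 and 0.46 on the 4 of series 14, against -0.87 to 0.24 on the 8 arrays of stimulated empty-virus cells. The 4 arrays of series 14 thus go against their label by this probe. Nr4a1, however, set arrays labelled HDAC7 DP below stimulated empty-virus arrays in both series. It ran from 0.62 to 2.69 against 3.09 to 5.52 in series 14, and from 1.28 to 3.30 against 3.76 to 4.69 in series 15. Hdac7 averaged 0.55 on the HDAC7-VP16 arrays (0.77 in series 15 and 0.22 in series 14), 1.36 on the MEF2D-VP16 arrays (1.17 to 1.58), -1.52 on the Nur77 arrays and -0.83 on the MSCV_B arrays, so it was higher on arrays labelled MEF2D-VP16 than on those labelled HDAC7-VP16. Whether these probes lie in the part of the gene that the constructs carry is not given in the sources used here.

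RefSeq promoter windows (GRCm38.p6, 250 bases before to 50 bases after the gene start) were at hand for 7 of the 9 genes, all but Ccl4 and Ccr7. Those of the ligands that rose with PMA and ionomycin (Ccl1, Ccl3) or with peptide (Ccl22, Xcl1, Ccl3), and of the receptor gene that fell in both settings (Cxcr4), are printed on their own strand. Capitals mark matches, on either strand, to the NFAT core (GGAAA), AP-1 (TGANTCA), NBRE (AAAGGTCA) and EGR (GCGNGGGCG) motifs and to the NF-kB and MEF2 motifs, which are given by name.
Ccl1 (chr11:82179763-82180062, minus strand): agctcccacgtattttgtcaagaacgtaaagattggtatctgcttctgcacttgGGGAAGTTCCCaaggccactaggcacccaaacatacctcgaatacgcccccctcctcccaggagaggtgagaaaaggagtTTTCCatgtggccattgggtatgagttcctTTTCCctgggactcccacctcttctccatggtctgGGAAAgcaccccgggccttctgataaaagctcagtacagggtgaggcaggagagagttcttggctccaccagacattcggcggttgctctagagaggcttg
Ccl3 (chr11:83649329-83649628, minus strand): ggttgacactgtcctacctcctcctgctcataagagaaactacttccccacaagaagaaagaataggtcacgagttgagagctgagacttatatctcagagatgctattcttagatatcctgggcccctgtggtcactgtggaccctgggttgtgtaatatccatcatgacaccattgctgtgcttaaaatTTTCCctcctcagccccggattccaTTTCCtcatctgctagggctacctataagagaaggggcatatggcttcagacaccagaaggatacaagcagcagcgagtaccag
Ccl22 (chr8:94745434-94745733, plus strand): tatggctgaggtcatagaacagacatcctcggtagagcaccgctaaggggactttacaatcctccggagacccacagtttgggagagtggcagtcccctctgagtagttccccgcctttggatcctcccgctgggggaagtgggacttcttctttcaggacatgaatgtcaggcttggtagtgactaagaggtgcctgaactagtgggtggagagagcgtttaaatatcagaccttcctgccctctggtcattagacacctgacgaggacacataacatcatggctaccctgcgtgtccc
Xcl1 (chr1:164935473-164935772, minus strand): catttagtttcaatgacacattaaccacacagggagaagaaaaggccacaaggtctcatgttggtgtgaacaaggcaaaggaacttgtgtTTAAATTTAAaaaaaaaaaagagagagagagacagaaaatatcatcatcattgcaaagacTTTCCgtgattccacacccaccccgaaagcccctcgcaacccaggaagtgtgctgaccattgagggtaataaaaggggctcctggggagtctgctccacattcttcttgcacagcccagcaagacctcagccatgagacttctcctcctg
Cxcr4 (chr1:128592250-128592549, minus strand): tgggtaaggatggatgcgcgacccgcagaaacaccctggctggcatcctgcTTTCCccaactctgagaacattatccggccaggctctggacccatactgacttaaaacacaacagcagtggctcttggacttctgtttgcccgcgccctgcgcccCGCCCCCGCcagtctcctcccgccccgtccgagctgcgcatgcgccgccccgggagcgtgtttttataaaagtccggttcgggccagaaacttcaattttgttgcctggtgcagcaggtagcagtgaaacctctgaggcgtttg
The NFAT core, bound by the factors that calcium signals bring into the nucleus, was matched in 4 of the 7 windows, those of Ccl1, Ccl3, Xcl1 and Cxcr4, and in 61.4% of all 32841 windows of the same length. The Ccl1 window held 3 such matches, the Ccl3 window 2, and those of Xcl1 and Cxcr4 1 each. An NF-kB match stood only in Ccl1 (8.46% of all windows), where it overlaps itself on both strands at bases -196 and -195 from the start. A MEF2 match stood only in Xcl1 (3.19%) and an EGR match only in Cxcr4 (5.55%). AP-1 (7.81%) and NBRE (1.51%), the site bound by Nur77, were matched in 0 of the 7. No motif of the set was found in the Ccl22, Cxcr3 or Ccr9 windows. A match is a run of letters in a window and not evidence of binding.

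**Figure D1:**
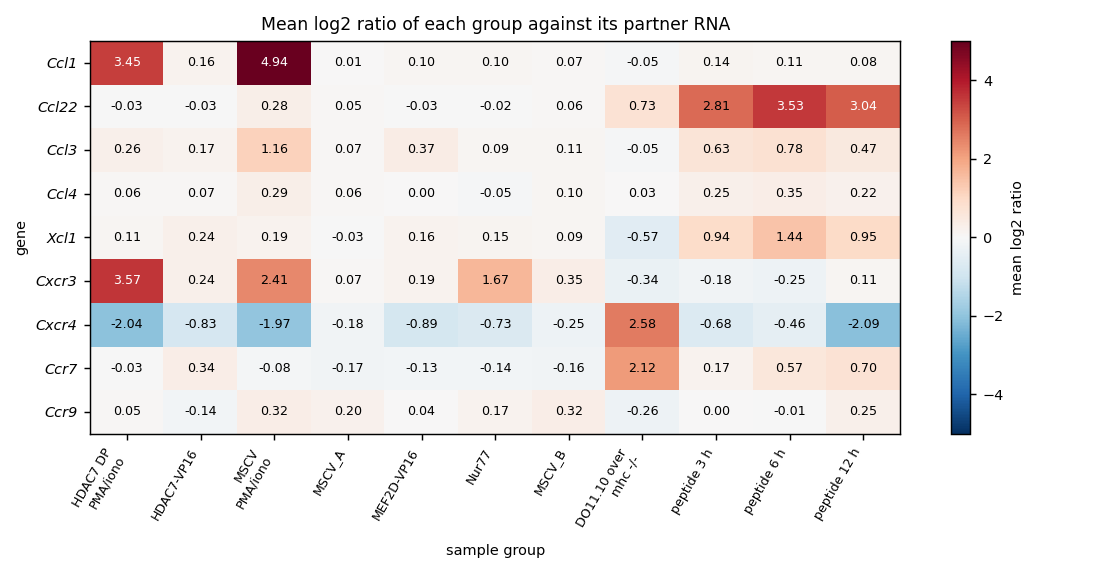
Mean log2 ratio of each gene (rows) in each of the 11 groups (columns) over the partner RNA, on a colour scale with numbers; the column of MHC-deficient mice runs DO11.10 over mhc -/-. Ccl1 reached 4.94 in stimulated empty-virus cells and Ccl22 3.53 at 6 h after peptide, while Cxcr4 stood at 2.58 for DO11.10 over mhc -/- and at -2.09 at 12 h.

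PMA and ionomycin changed both ligands and receptors in the hybridoma. In stimulated empty-virus cells set against MSCV_A, Ccl1 rose 30.6-fold and Cxcr3 5.08-fold, Ccl3 rose 2.14-fold, and Cxcr4 was 3.46-fold lower. So 4 of the 9 genes were called, beside 12.5% of all probes (6.07% higher and 6.43% lower). The remaining 5 were not called, and the median change of the 9 was 0.22, against -0.01 over all probes.

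Ccl1, a ligand of Ccr8, had log2 ratios between 2.49 and 7.79 (median 4.82) over the 8 stimulated empty-virus arrays, against -0.29 to 0.17 (median 0.03) over the 12 MSCV_A arrays. The groups did not overlap, and the lowest stimulated array was far above the highest unstimulated one. The log2 change was 4.94 (SE 0.57, limma adjusted p = 4.12e-06), rank 2 among the probes that rose. Cxcr3 had ratios between 1.32 and 4.04 (median 1.81) in stimulated empty-virus cells, against -0.17 to 0.38 (median 0.09) in MSCV_A. Again no array of one group reached the other, with a change of 2.34 (SE 0.32, limma adjusted p = 3.59e-05).

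Ccl3, an inflammatory chemokine that attracts leukocytes, had ratios between 0.29 and 2.74 (median 0.91) in stimulated empty-virus cells, against -0.40 to 0.75 (median -0.02) in MSCV_A. Here the groups overlapped, and the change was 1.10 (SE 0.27, limma adjusted p = 0.00988). Its call ended within slide series 14 (1.48, adjusted p = 0.126), within series 15 (0.72, adjusted p = 0.0973) and with slides of the same number averaged (1.10, adjusted p = 0.0643). Cxcr4 had ratios between -2.87 and -1.05 (median -1.88) in stimulated empty-virus cells, against -1.18 to 0.42 (median -0.06) in MSCV_A. Only MSCV_A replicate 5 lay within the stimulated range, and the change was -1.79 (SE 0.25, limma adjusted p = 4.74e-05). Ccl1, Cxcr3 and Cxcr4 were called in each slide series alone, at 5.66, 2.75 and -1.61 in series 14 and at 4.21, 1.94 and -1.97 in series 15.

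The genes not called were Ccl22 (0.22, adjusted p = 0.116), Ccl4 (0.23, 0.273), Xcl1 (0.21, 0.411), Ccr7 (0.09, 0.791) and Ccr9 (0.12, 0.929). Ccl4, which lies beside Ccl3 on chromosome 11, ranged from -0.08 to 0.95 in stimulated empty-virus cells. Among 27 other ligand genes measured, 3 rose and 0 fell with the stimulus: Ccl5 (0.75), Cxcl10 (0.47) and Ccl6 (0.42). Of 18 other receptor genes 2 rose, Ccr4 (1.22, limma adjusted p = 7.47e-06), which binds Ccl22, and Ccr8 (1.04, adjusted p = 0.0012), which binds Ccl1, and 0 fell. Of 31 probes for signalling downstream of the receptors 3 were higher and 4 lower, led by Rgs2 (1.21), which shortens G protein signals, the G protein subunit gene Gng2 (-1.04) and the Rap1 effector gene Rassf5 (0.91).

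Cells labelled HDAC7 DP, stimulated in the same way, showed 0 of the 9 genes called against stimulated empty-virus cells, beside 1.65% of all probes (0.522% higher and 1.12% lower). Ccl1 ran from 1.05 to 6.16 (median 3.30) in cells labelled HDAC7 DP, against 2.49 to 7.79 (median 4.82) in empty-virus cells, and Cxcr3 from 2.44 to 4.73 (median 3.32), against 1.32 to 4.04 (median 1.81). Both pairs of ranges overlapped. The largest differences were Ccl1 at -1.49 (SE 0.92, limma adjusted p = 0.59), Cxcr3 at 1.16 (SE 0.48, adjusted p = 0.327) and Ccl3 at -0.90 (SE 0.31, adjusted p = 0.209). Ccl22 stood at -0.30 (SE 0.10, adjusted p = 0.188) and Cxcr4 at -0.07 (SE 0.36, adjusted p = 0.963). With all 11 groups in a single fit, Ccl3 (-0.90, adjusted p = 0.0258) and Cxcr3 (1.16, adjusted p = 0.00555) were called. In series 15 alone, where Hdac7 was high on the arrays labelled HDAC7 DP, 0 of the 9 genes and 27 probes were called, with Ccl1 at -1.36 (limma adjusted p = 0.972), Cxcr3 at 1.34 (adjusted p = 0.906) and Ccl3 at -0.53 (adjusted p = 0.95). In series 14 alone, where Hdac7 was near 0 on them, 0 of the 9 and 192 probes were called, with Ccl1 at -1.63 (adjusted p = 0.711), Cxcr3 at 0.97 (adjusted p = 0.678) and Ccl3 at -1.27 (adjusted p = 0.405).

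Each stimulated group came on slides with 2 pairs of numbers, and the pairs differed. Ccl1 averaged 5.07 ± 0.89 on slides 17 and 18 labelled HDAC7 DP and 1.82 ± 0.61 on slides 19 and 20 labelled HDAC7 DP (SD, n = 4 each). In stimulated empty-virus cells Ccl1 averaged 3.17 ± 0.80 on slides 13 and 14 and 6.72 ± 1.01 on slides 15 and 16 (SD, n = 4 each). The slide pairs thus lay farther apart than the 2 groups did, for which the Ccl1 means were 3.45 ± 1.88 in cells labelled HDAC7 DP and 4.94 ± 2.08 in empty-virus cells (SD, n = 8 each). Cxcr4 followed the same pairs, with means of -2.69 (slides 17 and 18) and -1.39 (19 and 20) in cells labelled HDAC7 DP, against -1.28 (slides 13 and 14) and -2.65 (15 and 16) in empty-virus cells. The labels do not say what the pairs stand for, and their part in the comparison was not tested.

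Ccl3 averaged 0.36 and 0.16 on these slide pairs labelled HDAC7 DP, against 0.45 (slides 13 and 14) and 1.88 (slides 15 and 16) in empty-virus cells. Its higher values in empty-virus cells came from slides 15 and 16, on which every array (lowest 1.11) stood above every array labelled HDAC7 DP (highest 0.67). Ccl22 and Ccl4 had the same layout at a smaller size, with means of 0.48 and 0.58 on slides 15 and 16 and of 0.08 and 0.00 on slides 13 and 14. Cxcr3 averaged 4.28 and 2.86 on the slide pairs labelled HDAC7 DP, against 1.62 and 3.21 on the empty-virus ones. Among the related genes, Ccr8 was 1.16 lower in cells labelled HDAC7 DP (limma adjusted p = 0.0185), 2 probes for the G protein regulator Rgs3 stood at -1.14 and -0.64, and Rassf5 stood at -0.72, all called over both slide series together.

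**Figure D2:**
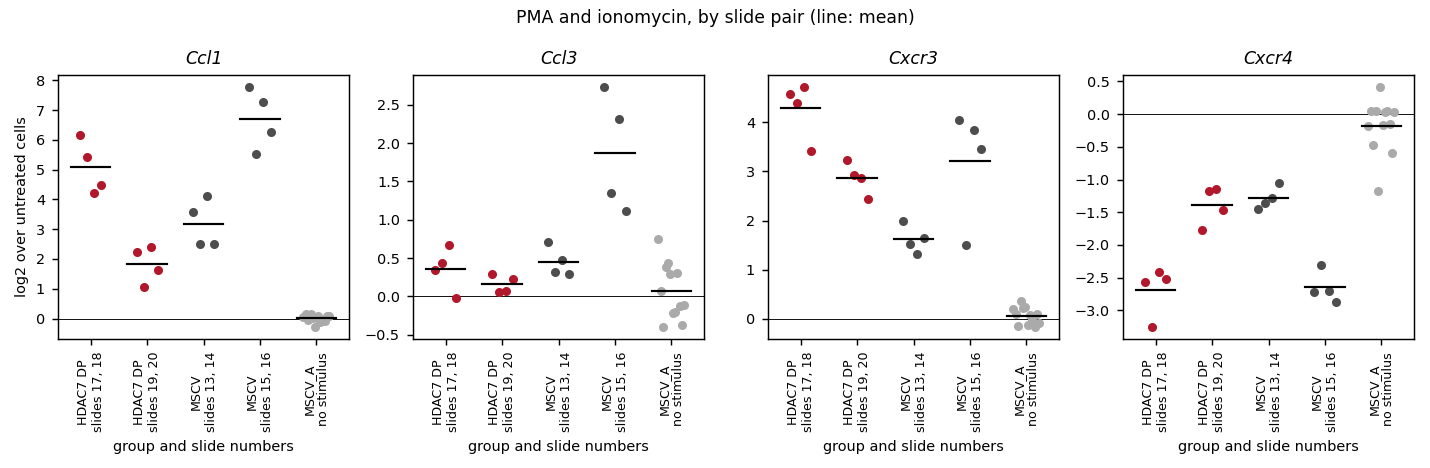
Log2 ratio over untreated hybridoma cells (vertical axis) of Ccl1, Ccl3, Cxcr3 and Cxcr4 on each array, by slide pair, for cells labelled HDAC7 DP and empty-virus cells with PMA and ionomycin and for MSCV_A cells without it; lines are means. The Ccl1 means run from 1.82 on slides 19 and 20 labelled HDAC7 DP to 6.72 on empty-virus slides 15 and 16.

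HDAC7-VP16 called 0 of the 9 genes against MSCV_A, beside 2.72% of all probes (1.42% higher and 1.29% lower). Cxcr4 had ratios between -2.11 and -0.01 (median -0.72) in HDAC7-VP16 cells, against -1.18 to 0.42 (median -0.06) in MSCV_A. The ranges overlapped over most of their length, and the change was -0.65 (SE 0.21, limma adjusted p = 0.12). It was called against untreated cells (-0.83, adjusted p = 0.0316), with a block for slide series (-0.71, adjusted p = 0.0178), within series 15 (-0.57, adjusted p = 0.0251) and with slides of the same number averaged (-0.64, adjusted p = 0.0129), and not within series 14 (-0.90, adjusted p = 0.528). Ccr7 averaged 0.34 ± 1.23 in HDAC7-VP16 cells (SD, n = 10), but -0.04 ± 0.28 without replicate 5 (n = 9), whose ratio was 3.75. Of the other receptor genes Ccr8 (0.91, limma adjusted p = 0.032) and Cxcr6 (0.45, adjusted p = 0.0258) rose with HDAC7-VP16, and 0 of 27 other ligand genes were called.

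Set against stimulated empty-virus cells, HDAC7-VP16 cells had lower Ccl1 (-4.78, limma adjusted p = 5.46e-05), Cxcr3 (-2.18, adjusted p = 0.00074) and Ccl3 (-0.99, adjusted p = 0.0374) and higher Cxcr4 (1.14, adjusted p = 0.0245), which is 4 of 9 beside 8.82% of all probes (4.73% higher and 4.09% lower). Ccl1 averaged 0.16 ± 0.21 in HDAC7-VP16 cells (n = 10) and 4.94 ± 2.08 in stimulated empty-virus cells (SD, n = 8), with no overlap, and was the lowest of all probes called. Within series 14, where 99 probes were called in place of 1452, none of the 4 kept its call: Ccl1 stood at -5.41 (limma adjusted p = 0.07), Cxcr3 at -2.39 (adjusted p = 0.175), Ccl3 at -1.35 (adjusted p = 0.355) and Cxcr4 at 0.72 (adjusted p = 0.586). Within series 15 Ccl1 and Cxcr3 kept theirs, while Ccl3 stood at -0.62 (adjusted p = 0.285) and Cxcr4 at 1.40 (adjusted p = 0.0514). With slides of the same number averaged, Ccl3 (-1.03, adjusted p = 0.134) and Cxcr4 (1.15, adjusted p = 0.0918) lost their calls too, and Ccl3 also did without HDAC7_VP16 replicate 1 (-0.96, adjusted p = 0.0615) or without a dye term (adjusted p = 0.0519).

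Nur77 and MEF2D-VP16 each came with 4 arrays and share the 4 MSCV_B arrays as control. With Nur77, Cxcr3 rose and Cxcr4 fell, 2 of the 9 beside 6.91% of all probes (3.62% higher and 3.29% lower). Cxcr3 had ratios of 1.65, 2.06, 2.42 and 0.53 on the Nur77 arrays, against 0.28, 0.53, 0.36 and 0.23 on the MSCV_B arrays. Of the Nur77 arrays 3 were well above the controls, and replicate 4 was level with the highest of them. The change was 1.32 (SE 0.32, limma adjusted p = 0.0328). Cxcr4 had ratios of -0.36, -0.48, -1.22 and -0.85 on the Nur77 arrays, against -0.08, 0.01, -0.35 and -0.58 on the MSCV_B arrays. These ranges overlapped, with a change of -0.48 (SE 0.12, adjusted p = 0.0438). Neither call was firm: Cxcr3 kept its call in 6 of 14 other settings and Cxcr4 in 4 of 14. Without a dye term both ended (adjusted p = 0.13 and 0.474). On leaving out a single array Cxcr3 lost its call in 7 of 8 refits, without Nur77 replicate 1, 2 or 3 or any 1 of the 4 MSCV_B arrays, and Cxcr4 in the same 7. Among the other receptor genes Cxcr6, whose ligand is Cxcl16, rose 1.71 (limma adjusted p = 0.000394), while Ccr4 (-0.74) and Cx3cr1 (-0.52) fell.

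With MEF2D-VP16, Cxcr4 alone of the 9 was called, beside 12.6% of all probes (6.4% higher and 6.16% lower). Its ratios were -0.70, -0.73, -1.01 and -1.10 on the MEF2D-VP16 arrays, against -0.08, 0.01, -0.35 and -0.58 on the MSCV_B arrays. The groups did not overlap, and the change was -0.64 (SE 0.15, limma adjusted p = 0.02). The call ended with all 11 groups in a single fit (adjusted p = 0.421) and without MEF2D_VP16 replicate 3 or 4 or MSCV_B replicate 1 or 2 (adjusted p between 0.0527 and 0.0635). Ccl5 (-1.26, adjusted p = 0.000323) and Cxcr6 (-1.34, adjusted p = 0.0149) fell and Ccr8 rose (1.23, adjusted p = 0.000502) with MEF2D-VP16. Between MEF2D-VP16 and Nur77, Cxcr3 was lower with MEF2D-VP16 by a log2 change of -1.47 (SE 0.34, limma adjusted p = 0.0184; 1 of 9 called beside 13% of all probes, 6.73% higher and 6.23% lower), and Cxcr4 differed by -0.16 (SE 0.17, adjusted p = 0.655). The Cxcr3 call ended without MEF2D_VP16 replicate 2 or 3 or Nur77 replicate 2 (adjusted p between 0.0521 and 0.0581).

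The empty virus itself was set against untreated cells. In MSCV_A 0 of 9 genes were called, beside 1.97% of all probes (0.626% higher and 1.35% lower). In MSCV_B Cxcr3 was called at 0.35 (SE 0.08, limma adjusted p = 0.0483), beside 5.72% of all probes (2.71% higher and 3.01% lower), a call that 7 of 8 other settings ended, among them each refit without 1 of its 4 arrays.

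**Figure D3:**
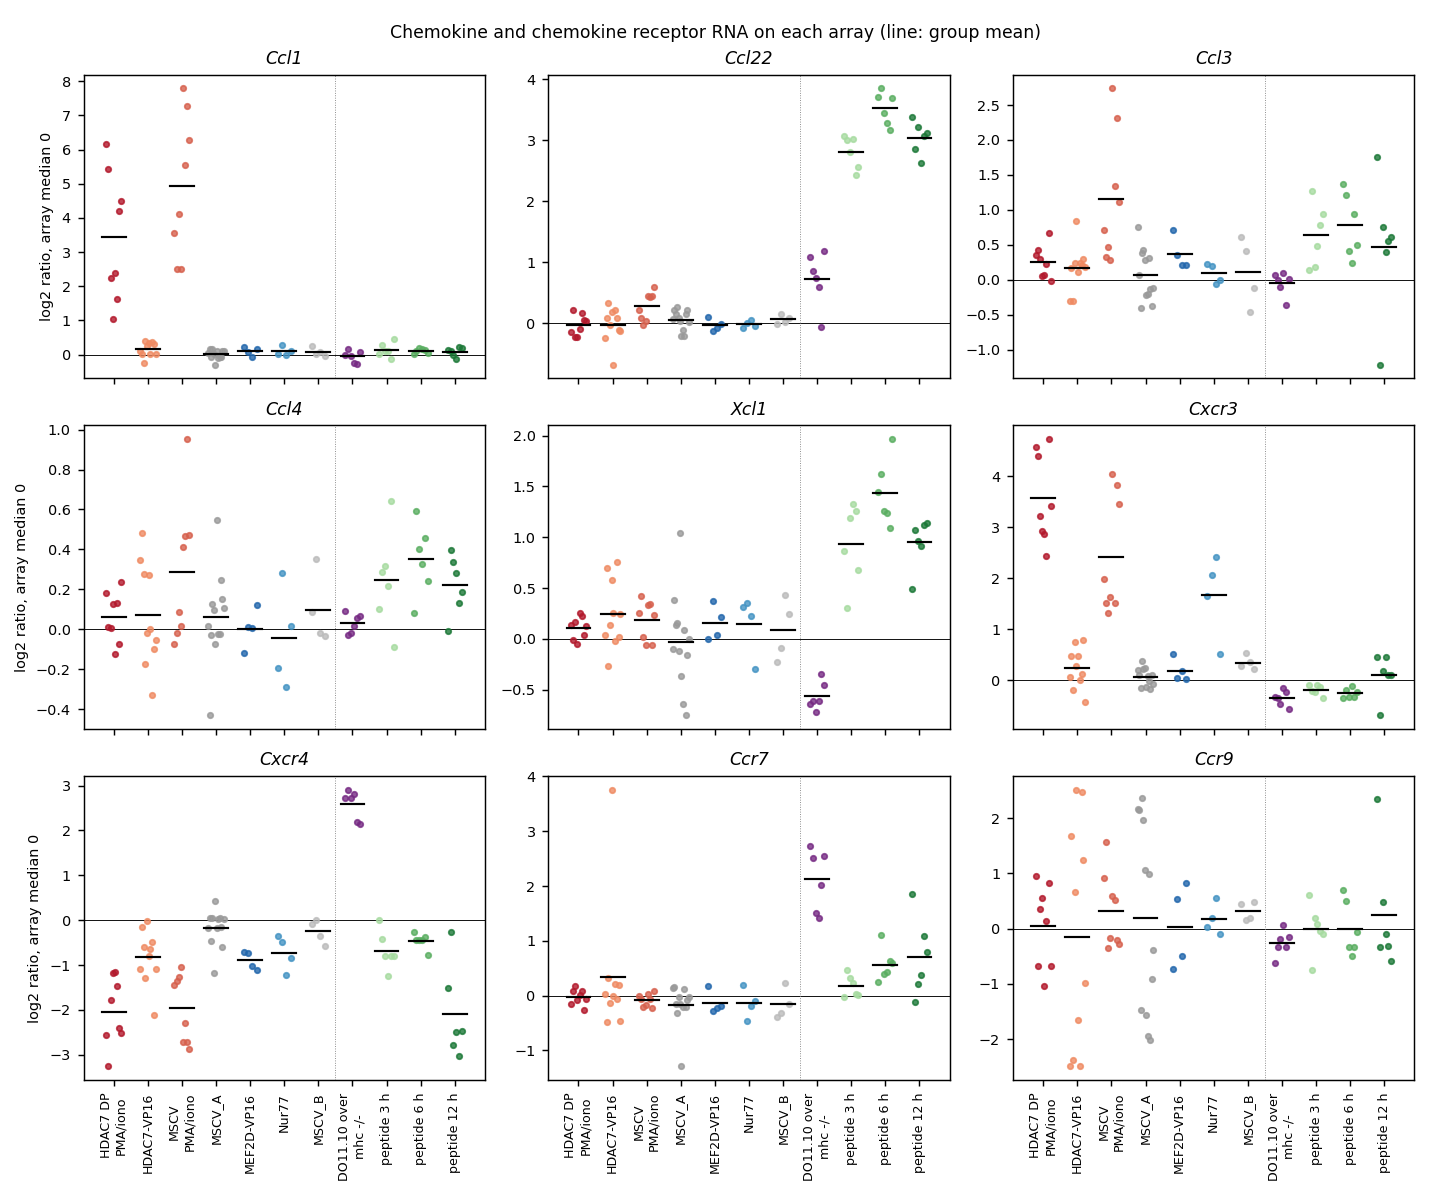
Log2 ratio, with the array median at 0, of each of the 9 genes on each of the 74 arrays (points) with group means (lines); groups right of the dotted line are thymocytes. The means of both stimulated groups stand above the others for Ccl1, and those of the 3 peptide groups for Ccl22 and Xcl1; for Cxcr3 the Nur77 arrays reach into the range of stimulated empty-virus cells, and Ccr9 is spread over more than 4 log2 units in MSCV_A and HDAC7-VP16.

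In thymocytes of mice injected with antigenic peptide, Ccl22 and Xcl1 were higher at every time. Ccl1 ratios stayed between -0.13 and 0.45 on the 18 peptide arrays, and 0 of the 3 times called it. The series holds no group with a mock injection or another peptide, so the antigen and the injection cannot be told apart. At 3 h 3 of the 9 genes were called (2.71% of all probes, 1.49% higher and 1.21% lower), all higher. At 6 h 5 were higher and 1 lower (4.57% of all probes, 2.03% higher and 2.54% lower), and at 12 h 2 were higher and 1 lower (3.38% of all probes, 1.66% higher and 1.72% lower). The 3 groups share uninjected thymocytes as partner RNA, so their values are given side by side. All 6 arrays at 3 h came on slides numbered 13-, against 2 at 6 h and 2 at 12 h. Differences of 3 h from the later times thus cannot be fully told apart from differences of slide set.

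Ccl22, a ligand of Ccr4, had the largest changes. Its ratios ran from 2.42 to 3.07 (median 2.91) at 3 h, from 3.17 to 3.85 (median 3.57) at 6 h and from 2.64 to 3.38 (median 3.09) at 12 h. All 18 arrays were far above 0. The mean change was 2.81 (SE 0.09, limma adjusted p = 2.89e-05) at 3 h, 3.53 (SE 0.10, adjusted p = 1.75e-06) at 6 h and 3.04 (SE 0.11, adjusted p = 0.000247) at 12 h, or 7.04-fold, 11.5-fold and 8.24-fold. At 6 h it stood first among all probes that rose, and at 3 h and 12 h it had rank 4.

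Ccl22 differed between the 3 times by the moderated F test of limma (adjusted p = 0.0257; 4.09% of all probes were called). That test held no term for slide set, and at 6 h Ccl22 averaged 3.78 on the 2 slides numbered 13- and 3.4 on the other 4. No array at 3 h reached the lowest at 6 h, yet the step between 3 h and 6 h, 0.71 (SE 0.15), was not called (adjusted p = 0.165; 0.0121% of all probes were called, 0.0121% higher and 0% lower), nor was that between 6 h and 12 h, -0.48 (SE 0.15, adjusted p = 0.0829). With all 11 groups in a single fit both steps were called (adjusted p = 0.00341 and 0.0188). With arrays scaled to equal spread the later step was called too, at -1.28 (adjusted p = 0.0191). That scaling changes the unit of each array, so the size of this step cannot be set beside -0.48.

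Xcl1, the ligand of Xcr1 on cross-presenting dendritic cells, had ratios from 0.30 to 1.32 (median 1.03) at 3 h, from 1.09 to 1.97 (median 1.35) at 6 h and from 0.49 to 1.15 (median 1.02) at 12 h. Every array was above 0, and the times overlapped. The changes were 0.94 (SE 0.13, limma adjusted p = 0.0136), 1.44 (SE 0.11, adjusted p = 0.000358) and 0.95 (SE 0.08, adjusted p = 0.00636), and the F test over times did not call it (adjusted p = 0.175). At 3 h the call ended without replicate 3, 4 or 6 (adjusted p between 0.0657 and 0.0734), and at 12 h without replicate 5 (adjusted p = 0.052).

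Ccl3 ratios ran from 0.14 to 1.27 (median 0.63) at 3 h, from 0.25 to 1.36 (median 0.72) at 6 h and from -1.22 to 1.76 (median 0.58) at 12 h. It rose at 3 h (0.63, SE 0.09, limma adjusted p = 0.0136) and at 6 h (0.78, SE 0.15, adjusted p = 0.0292) and was not called at 12 h (0.47, SE 0.29, adjusted p = 0.401). Both calls were weak: at 3 h the call ended without replicate 3, 4 or 6, without the dye term, and in the single fit of all 11 groups (adjusted p = 0.0507), and at 6 h without replicate 2, 3, 5 or 6. Ccl4 was called at 6 h alone (0.35, SE 0.07, adjusted p = 0.0358) and lost that call without any 1 of replicates 2 to 6 and with slide set as a random block (adjusted p = 0.0716). At 12 h the arrays of slides numbered 13- held both the highest and the lowest Ccl3 ratio. Without them Ccl3 (0.58, adjusted p = 0.00313) and Ccl4 (0.23, adjusted p = 0.0477) were called at 12 h.

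Of the 4 receptor genes, Cxcr4 was called lower at 6 h and 12 h and Ccr7 higher at 6 h. Cxcr4 ratios ran from -1.24 to 0.01 (median -0.80) at 3 h, from -0.77 to -0.26 (median -0.43) at 6 h and from -3.03 to -0.26 (median -2.49) at 12 h. At 12 h 4 arrays lay between -3.03 and -2.48, while those of slides 13-7 and 13-8 stood at -1.50 and -0.26. The change was -0.68 (SE 0.15, limma adjusted p = 0.0723) at 3 h, -0.46 (SE 0.07, adjusted p = 0.0109) at 6 h and -2.09 (SE 0.37, adjusted p = 0.0402) at 12 h, where it was the lowest of all probes called. The 12 h call ended without replicate 3, 4, 5 or 6 (values between -2.03 and -1.81, adjusted p between 0.133 and 0.168) and with slide set as a random block (-1.97, adjusted p = 0.0884). It also ended with arrays scaled to equal spread (-2.19 in scaled units, adjusted p = 0.0513). Without both slides numbered 13- it was -2.70 (adjusted p = 1.59e-05), and 4067 probes were called in place of 557. At 3 h Cxcr4 was called without replicate 1 (-0.85, adjusted p = 0.0182), and at 6 h its call ended without replicate 3 (-0.44, adjusted p = 0.0547) and with all 11 groups in a single fit (adjusted p = 0.418).

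Cxcr4 was the 1 member called between 6 h and 12 h, at -1.64 (SE 0.35, limma adjusted p = 0.0231; 3.18% of all probes were called, 1.02% higher and 2.16% lower), and the F test over times called it as well (adjusted p = 0.0216). With arrays scaled to equal spread the step was -1.36 in scaled units (adjusted p = 0.0618). On the slides not numbered 13- the mean was -2.70 at 12 h and -0.50 at 6 h (n = 4 each).

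Ccr7 ratios ran from -0.03 to 0.47 (median 0.13) at 3 h, from 0.24 to 1.11 (median 0.52) at 6 h and from -0.11 to 1.85 (median 0.59) at 12 h. It rose at 6 h (0.57, SE 0.08, limma adjusted p = 0.00824), a call that ended with all 11 groups in a single fit (adjusted p = 0.203). At 12 h it stood at 0.70 (SE 0.25, adjusted p = 0.161), with the slides numbered 13- again at both ends of the range, and was called without them (0.62, adjusted p = 0.00188) and with all 11 groups in a single fit (adjusted p = 0.0193). Cxcr3 was not called at any time (-0.18, -0.25 and 0.11), though at 6 h it was with arrays scaled to equal spread (adjusted p = 0.048). Ccr9 was not called either (0.00, -0.01 and 0.25). Without the slides numbered 13- Ccr9 was called at 6 h (-0.31, adjusted p = 0.035).

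**Figure D4:**
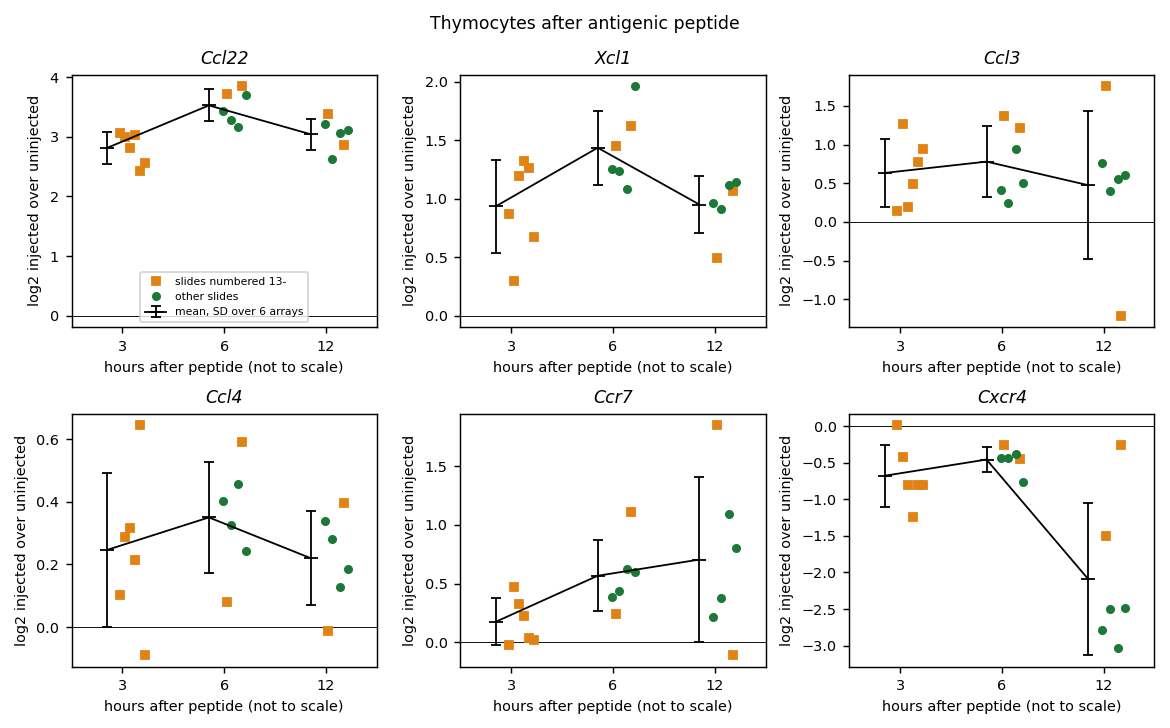
Log2 ratio of injected over uninjected DO11.10 thymocytes (vertical axes) at 3 h, 6 h and 12 h after peptide for 6 genes, with the mean and SD over 6 arrays; squares are slides numbered 13-, circles the others. Ccl22 and Xcl1 lie above 0 on every array, and at 12 h the slides numbered 13- stand above the other 4 for Cxcr4.

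Around these genes, 6 of 27 other ligand genes rose and 1 fell at 3 h, 5 rose and 2 fell at 6 h, and 9 rose and 1 fell at 12 h. The medians of these 27 were 0.21, 0.26 and 0.39 at the 3 times, against -0.00, 0.01 and 0.01 over all probes. The Cxcr3 ligand gene Cxcl9 stood at 1.56, 1.64 and 1.37 and the monocyte attractant gene Ccl2 at 1.19, 1.73 and 1.84 at the 3 times, all called, and Ccl9 at 1.80 at 12 h. Ccl25, the Ccr9 ligand that cortical epithelium makes, fell by 1.55 at 3 h and by 1.41 at 6 h. Among 18 other receptor genes Ccr8 rose at 6 h (1.02) and Cxcr5, which guides cells to B cell follicles, at 12 h (1.27, adjusted p = 0.0034). Rgs1, a regulator that dampens chemokine receptor signals, rose by 0.97, 0.97 and 0.99.

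Markers of other cells moved as well. Of 8 cortical epithelium genes 4 fell and 0 rose at 3 h, 5 fell and 0 rose at 6 h and 2 fell and 0 rose at 12 h, with Prss16, a protease gene of that epithelium, at -1.98, -1.84 and -1.96. The mean of the 8 on an array lay between -0.87 and -0.65 at 3 h, between -0.98 and -0.44 at 6 h and between -0.48 and 0.02 at 12 h. Of 6 dendritic cell probes Cd83 rose at 3 h (0.71) and 6 h (0.75) and Flt3 fell at 6 h (-0.46), and at 12 h 0 were called. The mean of these 6 lay between -0.20 and 0.21 at 3 h, between -0.09 and 0.04 at 6 h and between -0.20 and 0.62 at 12 h. Of 6 macrophage probes 3, 4 and 1 fell at the 3 times and 0 rose, and of 7 T cell probes 0 were called. Of 7 probes for double-positive thymocytes 2, 2 and 1 fell and 0 rose. The part of these cells in the changes of Ccl22, Xcl1 and Cxcr4 was not tested.

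Thymocytes of mhc -/- mice differed from DO11.10 thymocytes in 6 of the 9 genes, beside 36.3% of all probes (20.5% with a positive and 15.8% with a negative ratio). The deposited ratios of these arrays run DO11.10 over mhc -/-, so a positive value means less RNA in mhc -/- thymocytes. This direction was read from the MHC genes themselves, B2m (3.26), H2-Ab1 (2.42), H2-Eb1 (2.37) and H2-Aa (1.96), and is not stated in the sources used here. Cxcr4, Ccr7 and Ccl22 were lower in mhc -/- thymocytes, and Xcl1, Cxcr3 and Ccr9 higher.

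Cxcr4 had ratios of DO11.10 over mhc -/- between 2.15 and 2.90 (median 2.73), so all 6 arrays showed less Cxcr4 RNA in mhc -/- thymocytes. The mean was 2.58, or 6.00-fold (SE 0.12, limma adjusted p = 4.59e-06). Ccr7 had ratios between 1.41 and 2.74 (median 2.27), again lower in mhc -/- thymocytes on 6 of 6 arrays, with a mean of 2.12, or 4.36-fold (SE 0.09, adjusted p = 2.7e-06). Both were among the strongly changed probes, ranks 66 and 167 of the 3372 with a positive call. Ccl22 ratios lay between -0.07 and 1.19 (median 0.80), with 1 array slightly below 0 and 5 above, and a mean of 0.73 (SE 0.11, adjusted p = 0.00136).

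Xcl1 had ratios between -0.72 and -0.35 (median -0.61), that is, more RNA in mhc -/- thymocytes on all 6 arrays, with a mean of -0.57 (SE 0.06, limma adjusted p = 0.000279). Cxcr3 lay between -0.55 and -0.15, with a mean of -0.34 (SE 0.06, adjusted p = 0.00307), a call that ended with all 11 groups in a single fit (adjusted p = 0.315). Ccr9 averaged -0.26 (SE 0.08, adjusted p = 0.0379), and its call ended without replicate 1, 2, 3 or 5 (values between -0.27 and -0.19) and with all 11 groups in a single fit (adjusted p = 0.833). Ccl1, Ccl3 and Ccl4 were not called (-0.05, -0.05 and 0.03). The arrays came on slides 1 to 4 and on slides 17 and 18, and the mean ratios on these sets were 2.79 and 2.17 for Cxcr4, 2.04 and 2.29 for Ccr7 and 0.82 and 0.56 for Ccl22.

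The same arrays differed in their cell markers. Of 7 probes for double-positive thymocytes 6 were higher in mhc -/- thymocytes and 0 lower, with Ptcra, the surrogate chain of the early receptor, at -1.33 and Rag2, part of the recombinase, at -1.14. Of 6 genes of mature single-positive thymocytes 3 were lower in mhc -/- thymocytes (Cd5 3.77, Itgb7 2.15 and Klf2 1.74) and 2 higher (S1pr1 -0.89 and H2-Q7 -0.87). Of 8 cortical epithelium genes 5 were lower in mhc -/- thymocytes and 1 higher, with a mean of the 8 between 0.62 and 1.07 on every array. Ccl25 (1.55), Ccr8 (0.96) and the G protein subunit gene Gnb2 (2.82) were lower in mhc -/- thymocytes too. Of the 31 signalling probes 11 were lower in mhc -/- thymocytes and 1 higher, with a median ratio of 0.15, against -0.01 over all probes. Both directions together are near the share of all probes called, 36.3% (20.5% lower and 15.8% higher in mhc -/- thymocytes), which stands beside the other counts here too. By direction the signalling probes differ from it, with a larger share lower and a smaller share higher, and this difference was not tested. The part of cell composition in the values of Cxcr4 and Ccr7 was not tested.

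Ccr9 ratios differed by dye orientation. In HDAC7-VP16 cells it averaged 1.71 on the 5 arrays with the group RNA in Cy5 and -1.998 on the 5 with it in Cy3, a difference of 3.71, and in MSCV_A 1.37 on 6 and -0.97 on 6, a difference of 2.34. Only 0.589% and 0.334% of all probes had a larger dye difference in these groups. The Ccr9 difference was smaller elsewhere: 1.14 in stimulated empty-virus cells, 1.23 in cells labelled HDAC7 DP, 1.32 at 12 h and 0.60 at 3 h after peptide. It had the opposite sign in MEF2D-VP16 cells (-1.29) and lay between -0.11 and -0.03 in Nur77 cells, at 6 h after peptide and in MSCV_B. On the mhc -/- arrays, sorted by the dye of the mhc -/- RNA, it was -0.215. Their ratios run DO11.10 over mhc -/-, so the sign has the reverse meaning there. In MSCV_A replicate 3, labelled Cy5, stood at -1.47 and replicate 9, labelled Cy3, at 0.99, each on the side of the other orientation. The means of the 11 groups lay between -0.26 and 0.32 and no neighbours in their order differed by more than the SD of their arrays. For Cxcr4 the dye differences were 0.03 in HDAC7-VP16 cells and -0.09 in MSCV_A.

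**Figure D5:**
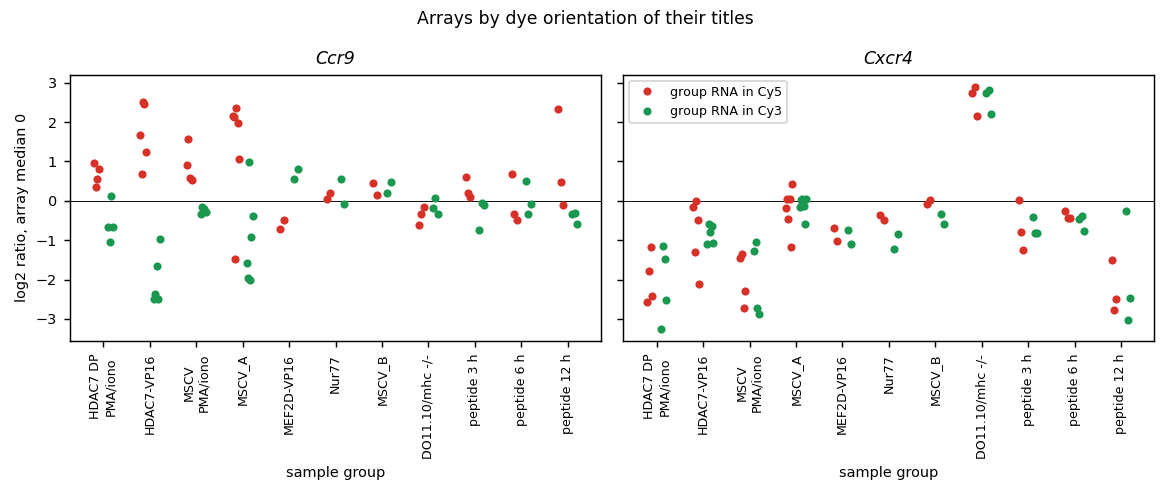
Log2 ratio (vertical axis) of Ccr9 and Cxcr4 on each array, coloured by the dye that the title gives to the RNA of the group. Ccr9 differs by dye most in HDAC7-VP16 and MSCV_A, by 3.71 and 2.34, where Cxcr4 differs by 0.03 and -0.09.

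Across the 11 groups, with the mhc -/- arrays in the direction taken for their deposited ratios, DO11.10 over mhc -/-, the genes had different orders. Ccl1 was highest in stimulated empty-virus cells (4.94), then in cells labelled HDAC7 DP (3.45), which did not differ beyond their SD, and the other 9 groups lay between -0.05 and 0.16 with no neighbours apart. Cxcr3 was highest in cells labelled HDAC7 DP (3.57), followed by stimulated empty-virus cells (2.41). The gap of 1.158 barely passed the larger SD, 1.155, and the limma fit of these 2 groups did not call it. Nur77 cells came next (1.67), not apart from stimulated empty-virus cells beyond the SD, and then MSCV_B (0.35). The 3 peptide groups led for Ccl22 and Xcl1, the group of DO11.10 over mhc -/- for Cxcr4 and Ccr7. For Ccl3, Ccl4 and Ccr9 no neighbouring groups differed by more than the larger SD. At the low end of Cxcr4 stood 12 h after peptide (-2.09), cells labelled HDAC7 DP (-2.04) and stimulated empty-virus cells (-1.97), which did not differ beyond their SD. Turned to mhc -/- over DO11.10, the direction in which the other groups run, the mhc -/- arrays stood at -2.58 for Cxcr4, -2.12 for Ccr7 and -0.73 for Ccl22, the last of 11 groups for each.

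The genes with the most similar pattern over the 11 group means were named by Pearson r, as a description. All points share the array design, several share a partner RNA, and the mhc -/- arrays enter as DO11.10 over mhc -/-. The r over the 74 single arrays is given after that over the means. Nearest to Ccl1 were the cytokine gene Il3 (r = 0.99 and 0.94), the RANK ligand gene Tnfsf11 (0.98 and 0.83) and the death ligand gene Fasl (0.98 and 0.92). Nearest to Ccl22 were Gzmb (0.99 and 0.89), the granzyme B gene, Il4i1 (0.98 and 0.88) and Il1a (0.98 and 0.86). Kif2c (0.99 and 0.82), a mitotic kinesin gene, was nearest to Cxcr4, Irgm2 (0.95 and 0.68), an interferon-induced GTPase gene, to Xcl1, and Olfr16 (0.97 and 0.92), an olfactory receptor gene, to Cxcr3. Nearest to Ccr7 was B2m (0.97 and 0.59), the light chain of MHC class I, which also served to read the direction of the mhc -/- arrays, where both genes had their highest means (B2m 3.26, Ccr7 2.12). For Ccl4 it was Nr4a3 (0.95 and 0.20), for Ccl3 the cytokine inhibitor gene Cish (0.86 and 0.53) and for Ccr9 Ly86 (0.82 and 0.84).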

How the data were processed

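The series matrix was used, a table of 16463 probes by 74 arrays. Its values were deposited by the authors as log ratios, taken here as log2. For background correction, normalisation, log base and direction no statement was found in the labels or the table. Aminoallyl cDNA was coupled to Cy3 or Cy5, per the labels' protocols. Array medians lay between -0.02 and 0.02, and each array was centred on its own. Groups and dye orientation came from the titles.

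The members and lists were chosen with earlier results of these data known. Each member was named in all groups. From the other lists at most the 3 largest called changes were named in each comparison, and each member's 3 most alike probes were sought among those with an SD of group means of at least 0.3. Symbols came from the platform annotation, with 14551 probes carrying 1 symbol, 6 several and 1906 none.

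Each comparison was fitted with limma 3.58.1 (R 4.3.3, statmod 1.5.0) and a dye term, with Benjamini-Hochberg adjustment over all probes and a threshold of 0.05. Groups with an empty-virus control were set against it, the others against 0. The fit was tested on simulated data. Alternatives were no centring, arrays scaled to equal spread, no dye term, slide series, slide sets, other controls, all groups in a single fit and leaving out arrays. The number of arrays limits the precision.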

Additional observations from a re-analysis of the deposited data

Results flagged for a closer look

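In 90 sets of a gene and a group with 4 to 10 arrays, 5 single values stood apart from the rest of their set. Chance gives about 1 in 20 sets, which is near the share seen. Some of these values came from the same array. Ccr7 was 3.75 on HDAC7_VP16 replicate 5, with the nearest other array at 0.314. The same array held the highest Ccl3 of its group, 0.835, with the next at 0.302. Of the 12 h peptide arrays on slides numbered 13-, replicate 1 had Xcl1 at 0.491 (nearest 0.915) and Ccr9 at 2.338 (nearest 0.481), and replicate 2 had Cxcr3 at -0.685 (nearest 0.101). The change of Cxcr4 after peptide differed between 12 h and 6 h by -1.636 (limma adjusted p = 0.0231), with means of -2.09 at 12 h and -0.46 at 6 h.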

How the results depend on the processing

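Of 32 called values of the 9 genes, 11 kept their call in every setting tried for them, and 0 reversed. Against MSCV_A, HDAC7-VP16 called 0 genes, and 1 against untreated cells, with slide series as a block, in series 15 alone and with slides of the same number averaged. Set against stimulated empty-virus cells, HDAC7-VP16 called 4 genes, 0 in series 14 alone, and 2 in series 15 alone and with slides averaged. With all 11 groups in a single fit, HDAC7 DP called 2 genes in place of 0, MEF2D-VP16 0 in place of 1, Nur77 1 in place of 2, MSCV_B 0 in place of 1, 6 h against 3 h 1 in place of 0, and 12 h against 6 h 2 in place of 1. Nur77 called 0 without a dye term and 1 against all 16 arrays with empty virus. MSCV_B called 0 without centring and 0 without a dye term. At 12 h, 6 genes in place of 3 were called without the slides numbered 13-. Leaving out 1 array at a time gave 0 to 1 genes for MEF2D-VP16, 0 to 2 for Nur77, 0 in each refit for MSCV_B, 1 to 4 at 3 h, 3 to 6 at 6 h, 1 to 3 at 12 h and 0 to 1 for MEF2D-VP16 against Nur77. The cause of these changes was not tested.

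The number of probes called moved by more than 1.5 times in several settings. Leaving out 1 array gave 100 to 654 at 3 h (446 with all arrays), 279 to 996 at 6 h (753), 46 to 1832 at 12 h (557), 677 to 1255 for Nur77 (1138) and 347 to 448 for MSCV_B (942). At 12 h it was 46 to 94 without replicate 3, 4, 5 or 6 and 1629 to 1832 without replicate 1 or 2. Without a dye term 365 were called for Nur77 and 20 for MSCV_B. With the sign of MSCV_A replicates 3 and 9 turned, MSCV_A itself called 0 probes in place of 325, and 623 with their dye exchanged. With slide series 14 alone the count was 7 for HDAC7-VP16 (447), 781 for stimulated empty virus (2057), 41 for MSCV_A (325) and 99 for HDAC7-VP16 against stimulated empty virus (1452), and with series 15 alone 703, 745, 189 and 564 for these and 27 for HDAC7 DP (271). With slides of the same number averaged it was 101 for HDAC7 DP and 623 for HDAC7-VP16 against stimulated empty virus. For HDAC7-VP16 it was 284 without a dye term and 238 against all 16 arrays with empty virus, and for Nur77 2167 against untreated cells. With slide set as a random block it was 3165 for MEF2D-VP16 (2067), 3443 for MEF2D-VP16 against Nur77 (2134), 480 at 6 h, 138 at 12 h, 5 for 6 h against 3 h (2) and 847 for 12 h against 6 h (523). Without the slides numbered 13- it was 1906 at 6 h and 4067 at 12 h. In the single fit it was 640 for Nur77, 401 for MSCV_B, 721 at 3 h, 2974 at 12 h, 35 for 6 h against 3 h and 1012 for 12 h against 6 h. With equal spread 36 were called for 6 h against 3 h and 324 for 12 h against 6 h, and without a dye term 1 for 6 h against 3 h. The shares of all probes in the text move with these counts. The settings for both arrays, and leaving out thymocyte and stimulated arrays in turn, were chosen after seeing the data. No paired analysis was possible because replicate numbers were given here in accession order and pair no arrays across groups. The number of arrays limits what can be called, above all in the groups of 4, and signal over background was not used here.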
